A study of Mus musculus with 8 samples.

Results

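Retinoic acid synthesis and response was examined through 10 genes, which make, degrade, bind or read out this hormone: Aldh1a1 and Aldh1a2 (synthesis), Cyp26a1, Cyp26b1 and Cyp26c1 (degradation), Crabp1 and Crabp2 (binding in the cytoplasm) and Rara, Rarb and Rarg (nuclear receptors). They were picked by name from the 20701 gene symbols of the expression table, and the transcript with the highest mean count was used for each. All 10 were present, and 9 had enough counts to be tested. Cyp26c1 did not pass the filter on low counts.

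The tissue was OFT/RV, the outflow tract together with the right ventricle, dissected from C57BL/6 mouse embryos at E10.5, and its polyadenylated RNA was sequenced. There were 4 control libraries from wild type embryos (CTRL) and 4 from Isl1 hypomorphs (Isl1_hypo), homozygous for a targeted allele (f;neo) that gives less of Isl1, a LIM-homeodomain transcription factor. Neither group received a treatment. The comparison asks how the OFT/RV transcriptome differs when Isl1 is reduced.

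Retinoic acid is made from vitamin A in steps that end with the retinaldehyde dehydrogenases of the Aldh1a family. Cyp26 enzymes clear it, so that its level in a tissue is set by neighbouring sources and sinks. Crabp proteins carry it in the cytoplasm, and the Rar receptors, paired with Rxr partners, bind retinoic acid response elements in DNA and activate genes that include Cyp26a1 and Rarb. In the embryonic heart, Aldh1a2 is known from the venous pole and the epicardium, and retinoic acid limits how far the second heart field, the source of OFT/RV, extends.

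Cyp26a1 and Rarb are the members long used as direct readouts of the hormone, and their promoters are shown because both held the letters of a response element. The element searched was a direct repeat of 2 half-sites separated by any 5 bases, each half-site being AGGTCA with G also allowed as the first base and T as the third, on both strands, in the window from 250 bases before to 50 after a gene's start. The 250 bases before the start are printed 5′ to 3′ on the strand of the gene, from RefSeq promoters of build GRCm38.p6, with the repeat in capitals. Each stretch matched the mm9 genome exactly 1 time, at chr19:37772048-37772297 on the plus strand for Cyp26a1 and at chr14:17407991-17408240 on the minus strand for Rarb.
Cyp26a1: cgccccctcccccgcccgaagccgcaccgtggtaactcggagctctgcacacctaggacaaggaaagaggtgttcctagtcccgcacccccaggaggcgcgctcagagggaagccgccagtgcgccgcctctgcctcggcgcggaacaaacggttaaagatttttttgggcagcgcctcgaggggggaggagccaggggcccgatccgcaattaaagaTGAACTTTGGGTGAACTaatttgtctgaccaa
Rarb: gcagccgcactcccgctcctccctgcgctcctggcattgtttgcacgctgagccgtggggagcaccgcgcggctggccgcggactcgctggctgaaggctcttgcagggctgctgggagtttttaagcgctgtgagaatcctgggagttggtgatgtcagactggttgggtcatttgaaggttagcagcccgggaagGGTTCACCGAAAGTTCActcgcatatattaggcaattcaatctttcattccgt
The Cyp26a1 repeat lay on the opposite strand, 32 to 16 bases before the start, and read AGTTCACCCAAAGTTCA on that strand. The Rarb repeat lay on the strand of the gene, 53 to 37 bases before the RefSeq start. That start is an internal one, within the Rarb gene as the mm9 annotation bounds it, and not its outermost 5′ end. Of all 32851 promoter windows, 32 (0.0974%) held such a repeat, against 2 of the 14 windows of the 9 members found in the promoter table. Of the 48 windows of 33 other retinoic acid pathway genes 0 held one. A match describes letters and not binding.

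The libraries held 29748458 to 46678973 counts in CTRL and 18422245 to 33050298 in Isl1_hypo, over 1 transcript per gene. Isl1 (mm9 chromosome 13, 117088478 to 117099896, minus strand), the gene targeted in the hypomorph, was measured at 29.6, 61.5, 46.2 and 51.3 CPM (counts scaled to a common library size) in the 4 CTRL libraries, in replicate order here and throughout, and at 12.7, 6.86, 7.71 and 11.4 CPM in Isl1_hypo. It fell by 2.29 on the log2 scale (SE 0.256, edgeR adjusted p = 0.0077), in the direction its labels give. Over 13769 genes tested, 37 had an adjusted p under 0.05. Cardiomyocyte markers summed to 30900 to 37930 CPM in CTRL and 33070 to 40120 CPM in Isl1_hypo. Most of this was Actc1, with means of 21020 and 23650 CPM. Of the 6 markers 3 were higher and 3 lower, and 2 of 6, Myh6 and Myh7, both lower, had an unadjusted p under 0.05 by edgeR (background 11.9%). Several features moved with the groups: globin transcripts summed to 2020 to 11900 CPM in CTRL and 11870 to 25520 CPM in Isl1_hypo, outflow tract myocardium markers to 544 to 638 and 321 to 383 CPM, endothelial markers to 644 to 751 and 492 to 631 CPM, epithelial markers to 67.9 to 115 and 124 to 303 CPM, and Y-linked genes were expressed in 1 CTRL and 3 Isl1_hypo libraries. The globin entries Hba-a1 and Hba-a2 had identical counts in every library, so these reads enter the globin sum repeatedly. Most of the epithelial sum was Krt8 and Krt18, with means of 36.4 and 64.05 CPM in CTRL and 69.0 and 111.5 CPM in Isl1_hypo. Of the libraries, 3 stood apart. CTRL replicate 1 was the lowest in epicardial markers, and Isl1_hypo replicate 3 had the lowest median rank correlation with its own group (0.97, against 0.983 to 0.989 for the other libraries). Isl1_hypo replicate 1 alone held many reads of the epithelial genes Cldn6 and Cdh1, with 708 and 282 counts against at most 8 and 9 in any other library.

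None of the 9 tested members passed the adjusted threshold by the quasi-likelihood test of edgeR, where the background was 0.269% of all tested genes. At an unadjusted p under 0.05 there were 4 of 9 (Aldh1a1, Crabp1, Crabp2 and Rarb), against a background of 11.9%. DESeq2 called 1 of 9 (Crabp1, background 2.32%) and limma-voom also 1 of 9 (Crabp1, background 0.944%). At an unadjusted p under 0.05 DESeq2 had the same 4 of 9 (background 13.2%) and limma-voom 5 of 9, Cyp26a1 being the fifth (background 13.6%). The CPM of the groups did not overlap for 2 of 9 (Aldh1a1 and Crabp1), with a background of 8.5%. The fitted log2 fold change was above 0 for 3 members and below 0 for 6, with a median of −0.39, beside a median of 0.0057 over all tested genes.

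**Figure D1:**
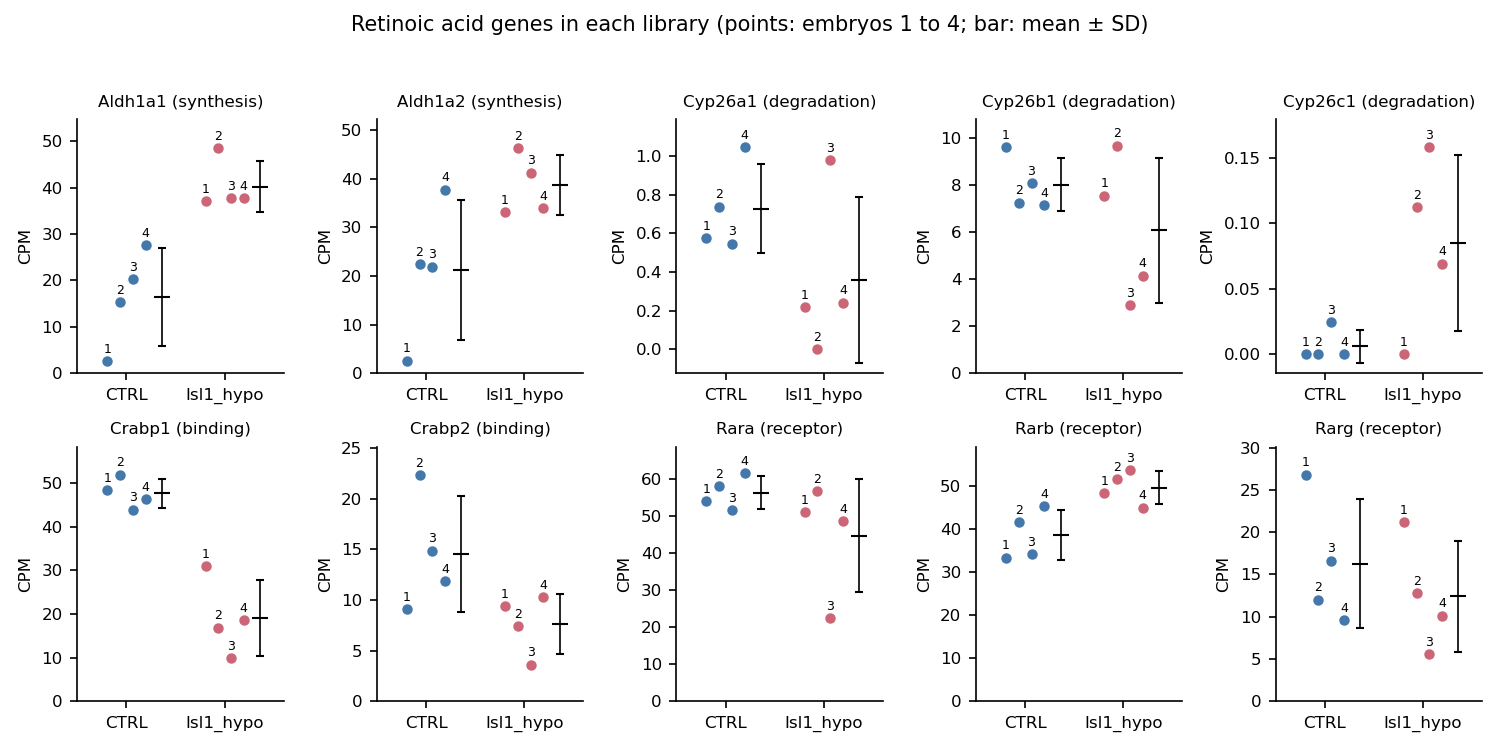
CPM of the 10 retinoic acid genes in each library, with 1 panel per gene, the replicate number beside each point and the mean ± SD of the 4 embryos of a group as a bar. Crabp1 sits at 44.0 to 52.0 CPM in CTRL and at 9.93 to 31.0 CPM in Isl1_hypo, and Aldh1a1 in every Isl1_hypo library is above every CTRL library.

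The 2 synthesis enzymes had higher mean levels in Isl1_hypo, with a wide spread among CTRL embryos, and neither passed the adjusted threshold. Aldh1a1, a cytosolic retinaldehyde dehydrogenase (mm9 chromosome 19, 20676451 to 20717952, plus strand), was at 2.66, 15.3, 20.2 and 27.6 CPM in CTRL and at 37.1, 48.4, 37.7 and 37.7 CPM in Isl1_hypo. The groups did not overlap, and CTRL replicate 1 was far below the other controls. The mean was 16.5 CPM in CTRL (range 2.66 to 27.6, n = 4) and 40.2 ± 5.47 CPM (SD, n = 4) in Isl1_hypo, a ratio of 2.44. The log2 fold change was 1.28 (SE 0.472), with an unadjusted p = 0.0193 and an adjusted p = 0.313 by edgeR, and an exact permutation test (2-sided, 70 possible splits) gave p = 0.0286, the smallest it can give. Without CTRL replicate 1 the log2 fold change was 0.93 (edgeR unadjusted p = 0.00116, adjusted p = 0.165).

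Aldh1a2, the main retinaldehyde dehydrogenase of the early embryo (mm9 chromosome 9, 71063596 to 71144050, plus strand), was at 2.62, 22.5, 21.9 and 37.8 CPM in CTRL and at 33.2, 46.2, 41.2 and 34.0 CPM in Isl1_hypo. Here the groups overlapped, since CTRL replicate 4 lay above 2 of the Isl1_hypo libraries. The means were 21.2 ± 14.4 CPM (SD, n = 4) and 38.7 ± 6.21 CPM (SD, n = 4). Its log2 fold change of 0.86 (SE 0.516) did not pass the test (edgeR adjusted p = 0.533), and the exact permutation p was 0.0857. Without CTRL replicate 1 it was 0.49 (edgeR unadjusted p = 0.0462, adjusted p = 0.482), a smaller difference with a smaller spread.

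Aldh1a1 lies in a family with a close relative, Aldh1a7, and of the 2004 distinct 50-base stretches of Aldh1a1 transcripts in the GENCODE annotation 151 (7.53%) also occur in Aldh1a7, so the split of reads between this pair is uncertain. Aldh1a7 was at 1.26 ± 0.268 CPM (SD, n = 4) in CTRL and 2.63 ± 0.386 CPM (SD, n = 4) in Isl1_hypo, with a log2 fold change of 1.06 (edgeR adjusted p = 0.299). Its level was well under that of Aldh1a1 in each group. Aldh1a1 and Aldh1a2 shared no such stretch.

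Both synthesis genes followed the markers of epicardium, the mesothelial cell layer over the heart. The 6 epicardial markers other than Aldh1a2 (Wt1, Tbx18, Tcf21, Upk3b, Upk1b and Sema3d) were all higher in Isl1_hypo, 6 of 6 at an unadjusted p under 0.05 (background 5.69% of tested genes in that direction) and 0 of 6 at an adjusted p under 0.05 (background 0.145%) by edgeR. Their summed level was 58.3, 207, 190 and 331 CPM in CTRL and 410, 460, 706 and 403 CPM in Isl1_hypo. CTRL replicate 1 was thus the lowest library both for the epicardial sum and for Aldh1a1 and Aldh1a2. Of the 7 markers of atrium and venous pole, Tbx18 again among them, 5 were higher and 2 lower in Isl1_hypo, with a median log2 fold change of 0.14. By edgeR 4 of these 7 had an unadjusted p under 0.05 (background 11.9%). The adjusted threshold was passed by 1 of 7, Sln, which was lower (background 0.269%). Whether the synthesis genes follow epicardium rather than venous pole was not tested. In bulk samples, fewer cells of a type and less RNA per cell cannot be told apart.

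Levels were therefore also set against that sum. Aldh1a1 amounted to 4.56%, 7.41%, 10.6% and 8.35% of the epicardial sum in CTRL and to 9.05%, 10.51%, 5.34% and 9.35% in Isl1_hypo. Aldh1a2 amounted to 4.5%, 10.9%, 11.5% and 11.4% in CTRL and to 8.1%, 10.04%, 5.84% and 8.44% in Isl1_hypo. The ranges of the groups overlapped for both genes. With the mean log2 level of these markers as a covariate, an analysis added after seeing the data, the log2 fold change was −0.20 for Aldh1a1 (edgeR unadjusted p = 0.579) and −0.85 for Aldh1a2 (edgeR unadjusted p = 0.0175, adjusted p = 0.775). The markers themselves differ between the groups, so group and covariate are not independent in this fit.

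**Figure D2:**
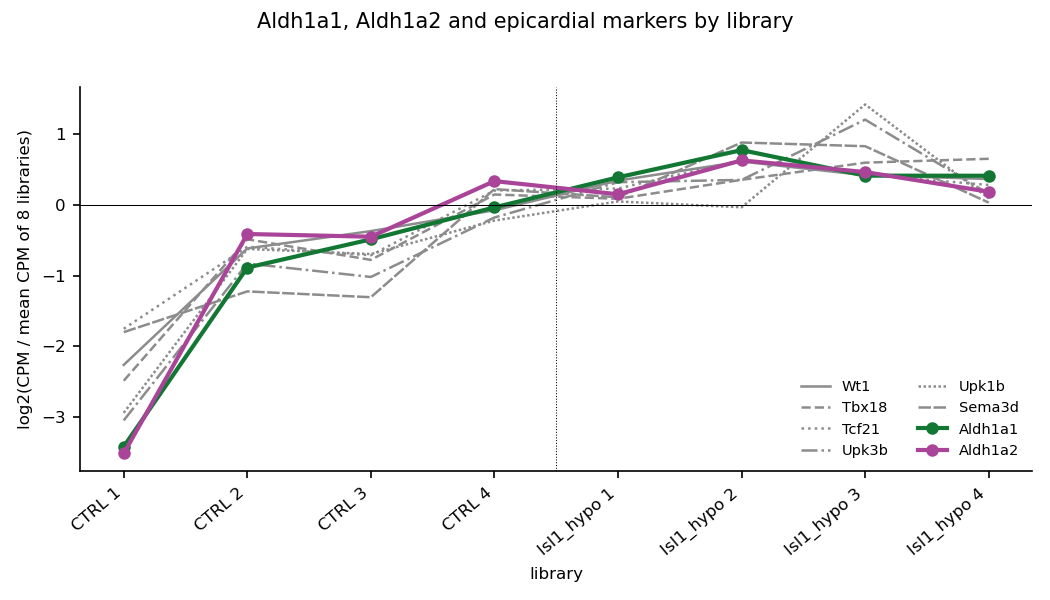
Level of Aldh1a1, Aldh1a2 and 6 epicardial markers in each library, as log2 of the CPM over the gene's mean CPM of the 8 libraries. Lines only join the points of a gene, the dotted vertical line separates CTRL from Isl1_hypo, and both synthesis genes run with the markers from their lowest point in CTRL replicate 1.

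Across the 8 libraries the log2 CPM of Aldh1a1 and Wt1, an epicardial transcription factor gene, had a Pearson r of 0.997, and Aldh1a2 and Wt1 one of 0.968. The pair Aldh1a1 and Aldh1a2 had r = 0.98, and 0.896 without CTRL replicate 1. These values describe libraries that share a dissection and a group difference. Among 10743 genes with a mean of at least 5 CPM, the profiles most like that of Aldh1a2 over the 8 libraries were those of Psma6 (a proteasome subunit, r = 0.996), Apela (a peptide ligand of the apelin receptor, r = 0.986) and Aldh1a1. Psma6 ranged only from 352 to 440 CPM, while Apela ranged from 3.13 to 49.98 CPM.

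The Cyp26 enzymes, cytochrome P450 proteins that oxidise retinoic acid, were low in both groups and none passed the test. Cyp26b1 (mm9 chromosome 6, 84521938 to 84543740, minus strand) was the most abundant per length. It was at 9.6, 7.26, 8.07 and 7.14 CPM in CTRL and at 7.55, 9.67, 2.91 and 4.15 CPM in Isl1_hypo. The lowest values were in Isl1_hypo replicates 3 and 4, whereas replicates 1 and 2 lay within or above the CTRL range. Its log2 fold change was −0.41 (SE 0.338, edgeR adjusted p = 0.66), −0.17 without Isl1_hypo replicate 3 and −0.73 without Isl1_hypo replicate 2 (edgeR unadjusted p = 0.0473, adjusted p = 0.42). In edgeR it was 0.0063 with the globin level and −0.04 with the epicardial level as a covariate.

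Cyp26a1, the retinoic acid inducible enzyme whose promoter is printed above (gene at mm9 chromosome 19, 37772298 to 37776018, plus strand), had 18, 30, 22 and 49 counts in CTRL and 4, 0, 31 and 7 counts in Isl1_hypo. In CPM these were 0.576, 0.738, 0.546 and 1.05 in CTRL and 0.217, 0, 0.98 and 0.242 in Isl1_hypo. Isl1_hypo replicate 3 was as high as the controls, and the other 3 hypomorph libraries were below every control. On the log2 scale the fold change was −0.98 (SE 0.887, edgeR adjusted p = 0.687), and −2.25 without Isl1_hypo replicate 3 (edgeR unadjusted p = 0.0294, adjusted p = 0.389). Without Isl1_hypo replicate 2 it was −0.58 (edgeR unadjusted p = 0.457). With all 8 libraries DESeq2 gave −0.99 (adjusted p = 0.722) and limma-voom −2.78 (unadjusted p = 0.0135, adjusted p = 0.218). In edgeR it was −2.30 with the globin level and −2.03 with the Y-linked level as a covariate (adjusted p = 0.9996 and 0.919).

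Cyp26c1 (mm9 chromosome 19, 37760071 to 37767888, plus strand), a neighbour of Cyp26a1, had 0, 0, 1 and 0 counts in CTRL and 0, 3, 5 and 2 counts in Isl1_hypo. It was at or near the detection limit of 3 counts in nearly every library, and no fold is given.

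Per length of transcript, Aldh1a1 and Aldh1a2 together gave 2.48, 17.6, 19.8 and 30.5 RPKM (CPM per kilobase of transcript) in CTRL and 33.1, 44.6, 37.0 and 33.8 RPKM in Isl1_hypo. The 3 Cyp26 genes together gave 2.35, 1.95, 2.03 and 2.1 RPKM in CTRL and 1.72, 2.11, 1.27 and 1.06 RPKM in Isl1_hypo. The ratio of synthesis to degradation transcripts was therefore 1.06, 9.04, 9.75 and 14.5 in CTRL and 19.3, 21.1, 29.2 and 32.0 in Isl1_hypo. The groups did not overlap in this ratio, nor in the synthesis sum alone, whereas their Cyp26 sums overlapped. The ratio is a description of RNA and not of enzyme activity. Its highest value, in Isl1_hypo replicate 4, came with the lowest Cyp26 sum.

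**Figure D3:**
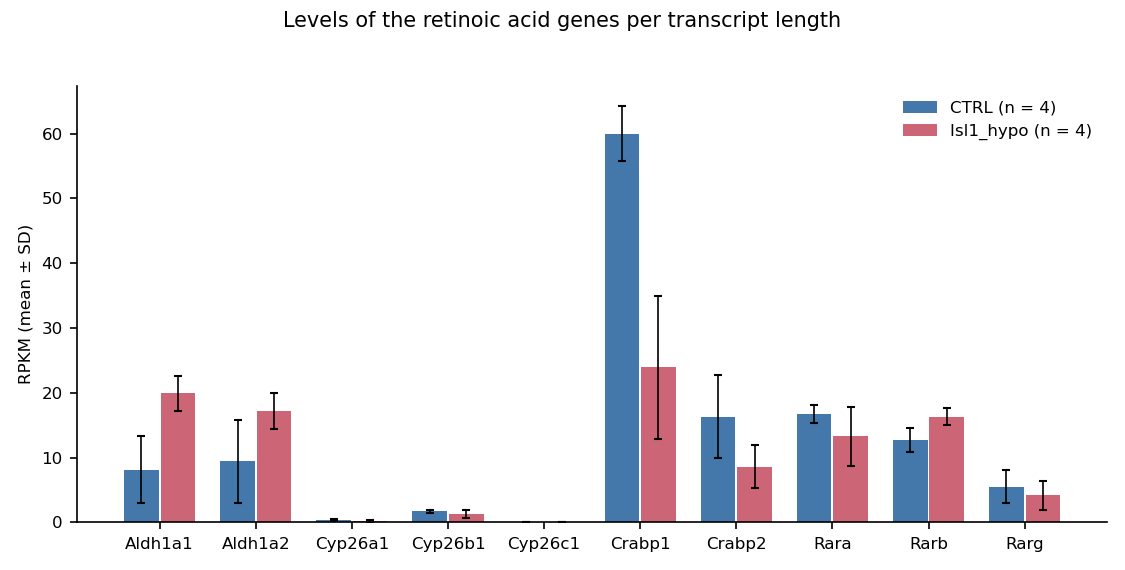
Mean RPKM ± SD of the 10 genes in CTRL and Isl1_hypo (n = 4 embryos each). Crabp1 has the tallest bar in CTRL, at 60.0 RPKM, and the Cyp26 genes are under 2 RPKM in both groups.

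Both cytoplasmic binding proteins had lower mean levels in Isl1_hypo, and neither passed the adjusted threshold by edgeR. Crabp1 (mm9 chromosome 9, 54612555 to 54620917, plus strand), thought to hold retinoic acid in the cytoplasm and pass it to Cyp26 enzymes, was at 48.5, 52.0, 44.0 and 46.4 CPM in CTRL and at 31.0, 16.8, 9.93 and 18.5 CPM in Isl1_hypo. The controls lay close together, and every Isl1_hypo library was below every control. The means were 47.7 ± 3.38 CPM (SD, n = 4) and 19.1 ± 8.76 CPM (SD, n = 4), so that Isl1_hypo had 39.95% of the CTRL level.

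The log2 fold change of Crabp1 was −1.33 (SE 0.268), the smallest unadjusted p among the members (0.000378), with an edgeR adjusted p = 0.0688 and an exact permutation p = 0.0286. Whether this was called turned on the test. DESeq2 gave −1.33 with an adjusted p = 0.000127, and limma-voom gave −1.25 with an adjusted p = 0.0101. By edgeR the adjusted p was 0.0172 without Isl1_hypo replicate 1 (log2 fold change −1.66), 0.0489 without Isl1_hypo replicate 3 (−1.11) and 0.0724 without CTRL replicate 1 and Isl1_hypo replicate 3 together (−1.11). With any other single library left out it was not called, the edgeR adjusted p being 0.117 to 0.187 without a control and 0.206 or 0.18 without Isl1_hypo replicate 2 or 4. A shorter second transcript of Crabp1 in the table, which shares most of its reads, gave −1.29.

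Crabp2 (mm9 chromosome 3, 87752588 to 87757298, plus strand), which delivers retinoic acid to the receptors in the nucleus, was at 9.09, 22.4, 14.9 and 11.9 CPM in CTRL and at 9.4, 7.38, 3.6 and 10.3 CPM in Isl1_hypo. CTRL replicate 1 fell within the Isl1_hypo range, and the other controls were above it. The means were 14.6 ± 5.72 CPM (SD, n = 4) and 7.66 ± 2.96 CPM (SD, n = 4). Its log2 fold change was −0.93 (SE 0.341, edgeR unadjusted p = 0.0192, adjusted p = 0.313), and the exact permutation p was 0.0857. Without CTRL replicate 2 it was −0.64 (edgeR unadjusted p = 0.0807).

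Isl1_hypo replicate 3 was the lowest of the 8 libraries for both binding proteins. The log2 CPM of Crabp1 and Crabp2 had a Pearson r of 0.833 over the 8 libraries and 0.409 within the 4 controls. Among 10743 genes with a mean of at least 5 CPM, the profiles most like that of Crabp1 were those of Hnrnpdl (an RNA-binding protein, r = 0.99), Asb4 (a subunit of a ubiquitin ligase, r = 0.986) and Slc39a7 (a zinc transporter, r = 0.983). These were lower by 0.46, 0.66 and 0.24 on the log2 scale in Isl1_hypo.

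Crabp1 is known from neural crest cells, which enter the OFT at this stage, so their markers are given beside it. Sox10 and Foxd3, which define these cells, were at most 0.30 CPM in any library of either group. The 8 neural crest markers summed to 59.5 to 64.2 CPM in CTRL and 55.4 to 81.5 CPM in Isl1_hypo, nearly all of it Ets1, which endothelium also expresses, and of the 3 that could be tested 1 was higher, 2 were lower and 0 had an unadjusted p under 0.05 by edgeR. Outflow tract myocardium markers were lower in 6 of 6 cases in Isl1_hypo, the targeted gene Isl1 among them. By edgeR 4 of 6 of these markers had an unadjusted p under 0.05 (background 6.17% of tested genes in that direction). The markers that passed the adjusted threshold were 2 of 6, Isl1 and Bmp4 (background 0.123%). Their part in the lower Crabp1 and Crabp2 levels was not tested.

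None of the 3 retinoic acid receptors, ligand-dependent transcription factors, passed the adjusted threshold. Rara (mm9 chromosome 11, 98789132 to 98836256, plus strand), the most broadly expressed of them, was at 54.1, 58.2, 51.6 and 61.8 CPM in CTRL and at 51.2, 56.7, 22.4 and 48.7 CPM in Isl1_hypo. Apart from Isl1_hypo replicate 3 the libraries spanned a narrow range. The fitted log2 fold change was −0.33 (SE 0.232, edgeR adjusted p = 0.587), and −0.11 without Isl1_hypo replicate 3.

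Rarb (mm9 chromosome 14, 17263356 to 17651381, minus strand), the receptor that retinoic acid itself induces and the second promoter printed above, was at 33.2, 41.4, 34.0 and 45.2 CPM in CTRL and at 48.2, 51.4, 53.6 and 44.9 CPM in Isl1_hypo. The highest control, replicate 4, was just above the lowest hypomorph, replicate 4, and the other values did not cross. The means were 38.5 ± 5.8 CPM (SD, n = 4) and 49.5 ± 3.8 CPM (SD, n = 4). The log2 fold change was 0.36 (SE 0.135, edgeR unadjusted p = 0.0199, adjusted p = 0.316), and the exact permutation p was 0.0571. It was 0.30 without CTRL replicate 1 (edgeR unadjusted p = 0.055) and 0.11 with the epicardial level as a covariate (edgeR unadjusted p = 0.535). The 4 Rarb transcripts in the table, which share most of their reads, gave 0.35 to 0.37.

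Rarg (mm9 chromosome 15, 102065369 to 102087948, minus strand), the receptor of the family found most in mesenchyme and skin, was at 26.8, 12.0, 16.6 and 9.58 CPM in CTRL and at 21.2, 12.8, 5.59 and 10.1 CPM in Isl1_hypo. The ranges overlapped from 9.58 to 21.2 CPM, with 1 control above every hypomorph and 1 hypomorph below every control. The log2 fold change was −0.39 (SE 0.392, edgeR adjusted p = 0.715), −0.05 without CTRL replicate 1 and −0.78 without Isl1_hypo replicate 1 (edgeR unadjusted p = 0.0616). It turned above 0 with the globin level (0.55) or the epicardial level (0.69) as a covariate. Without CTRL replicate 1 and Isl1_hypo replicate 3 together it was 0.20.

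The 2 members known as direct readouts of the hormone did not move together: Rarb was higher and Cyp26a1 lower in Isl1_hypo by the fitted values, neither past the adjusted threshold.

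**Figure D4:**
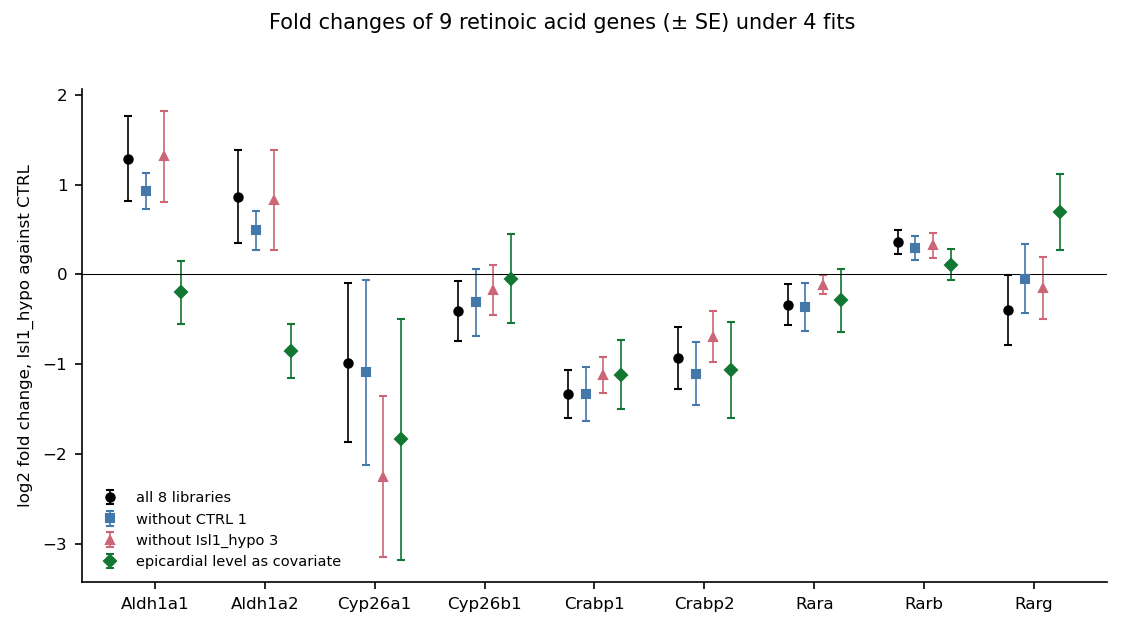
Log2 fold change (Isl1_hypo against CTRL, ± SE) of the 9 tested genes by edgeR with all 8 libraries, without CTRL replicate 1, without Isl1_hypo replicate 3 and with the epicardial level as covariate. Crabp1 stays between −1.33 and −1.11 in these 4 fits, Aldh1a1 and Aldh1a2 are above 0 in the first 3 and below 0 in the last.

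Globin transcripts, a measure of blood in the dissected tissue, also moved with the groups. When the fit took in their mean log2 level, the fitted log2 fold change was 0.48 for Aldh1a1, 0.04 for Aldh1a2, −1.05 for Crabp1, −0.40 for Crabp2 and 0.18 for Rarb. Of these, Crabp1 was the one gene still at an unadjusted p under 0.05 (0.0192 by edgeR), with an adjusted p = 0.9996 by edgeR. The part of blood in these levels was not otherwise tested.

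Per length, the order of levels in CTRL was Crabp1 (60.0 ± 4.24 RPKM), Rara (16.7 ± 1.33), Crabp2 (16.3 ± 6.4), Rarb (12.7 ± 1.91), Aldh1a2 (9.43 ± 6.4), Aldh1a1 (8.16 ± 5.21), Rarg (5.52 ± 2.59), Cyp26b1 (1.69 ± 0.239), Cyp26a1 (0.41 ± 0.13) and Cyp26c1 (0.004 ± 0.00801), each as mean RPKM ± SD over 4 embryos. Crabp1 stood clear of the rest, and so did Cyp26b1 and Cyp26a1 of one another. From Rara to Rarg, neighbours in this order differed by less than the SD of the more variable gene. In Isl1_hypo, Crabp1 (23.9 ± 11.01 RPKM), Aldh1a1 (19.9 ± 2.71), Aldh1a2 (17.2 ± 2.76), Rarb (16.3 ± 1.25) and Rara (13.3 ± 4.53) were neighbours within their spread, followed by Crabp2 (8.57 ± 3.32) and Rarg (4.22 ± 2.23).

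The members were set beside 47 other retinoic acid pathway genes, of which 38 were tested. By edgeR 0 of 38 passed the adjusted threshold and 4 of 38 had an unadjusted p under 0.05, with a background of 11.9%. At that unadjusted threshold there were 6 of 38 by DESeq2 (background 13.2%) and 8 of 38 by limma-voom (background 13.6%). By DESeq2 1 of 38 passed the adjusted threshold (Nr2f2, background 2.32%) and by limma-voom 0 of 38 (background 0.944%). The fitted log2 fold change was above 0 for 12 and below 0 for 26, with a median of −0.10.

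Of the other tested genes listed under synthesis, 5 of 8 were higher and 3 lower. Dhrs3, a retinaldehyde reductase and so not a synthesis enzyme, was 1 of these 5 (log2 fold change 0.36, edgeR unadjusted p = 0.163). The highest of the list per length was Adh5, a broadly expressed alcohol dehydrogenase, at 159 ± 10.6 RPKM in CTRL and 178 ± 7.99 RPKM in Isl1_hypo (SD, n = 4). Aldh1a3, a further retinaldehyde dehydrogenase, was low, with 31 to 50 counts in CTRL and 7 to 13 in Isl1_hypo, and its groups did not overlap. Its log2 fold change was −1.48 (SE 0.56, edgeR unadjusted p = 0.0225, adjusted p = 0.326), opposite in sign to Aldh1a1 and Aldh1a2. At 0.305 RPKM in CTRL and 0.11 in Isl1_hypo it contributed far less transcript than either.

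Among the 5 retinol transport genes, 1 was higher and 4 were lower. Fabp5, a lipid carrier that can bring retinoic acid to Ppard, was at 29.0 ± 14.5 RPKM in CTRL and 24.6 ± 16.3 RPKM in Isl1_hypo (SD, n = 4). The receptor partner highest per length was Rxrb, at 7.8 ± 0.727 and 7.05 ± 2.13 RPKM. None of these had an unadjusted p under 0.05.

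Coregulators, which the receptors recruit to activate or silence genes, had 7 of 8 log2 fold changes below 0, with a median of −0.29. The highest per length was the acetyltransferase gene Crebbp, at 10.6 ± 0.998 RPKM in CTRL and 8.63 ± 1.77 RPKM in Isl1_hypo (SD, n = 4).

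Of the response genes, 4 of 12 were higher and 8 lower, and the highest per length was Tgm2, a transglutaminase gene, at 139 ± 14.8 RPKM in CTRL and 166 ± 30.3 RPKM in Isl1_hypo (SD, n = 4). Nr2f2, an orphan receptor that marks atrial and venous cells, was at 11.1, 14.3, 9.41 and 17.5 CPM in CTRL and at 22.9, 23.5, 38.0 and 18.5 CPM in Isl1_hypo, without overlap. Its log2 fold change was 0.97 (SE 0.251, edgeR unadjusted p = 0.00235, adjusted p = 0.173). Hoxa3, an anterior Hox gene, had 21, 101, 35 and 50 counts in CTRL and 12, 1, 5 and 5 in Isl1_hypo, with a log2 fold change of −2.38 (SE 0.804, edgeR unadjusted p = 0.0125, adjusted p = 0.296). Exons of other genes overlap Hoxa3 and strand was ignored in counting, so its reads cannot be assigned to it with certainty.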

How the data were processed

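RNA was from dissected OFT/RV of single embryos, 4 CTRL and 4 Isl1_hypo, grouped by the sample labels. The authors selected polyadenylated RNA, sequenced it on a BGISEQ-500, aligned reads with STAR to mm9 and counted exon reads per RefSeq transcript with HOMER on both strands added together (versions not given in the sources used here). The deposited counts are whole numbers and were not normalized. The deposited RPKM values are the authors' own, made with edgeR. The deposited table also holds the authors' DESeq2 comparison: mean normalized signal, log2 fold change with its standard error, Wald statistic (a score), p-value and adjusted p-value. Neither these columns nor the authors' RPKM were used.

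Of 31507 transcripts, that with the highest mean count was kept for each of 20701 symbols. Genes were filtered with filterByExpr, scaled by TMM and the groups compared by edgeR 4.0.16 (glmQLFit and glmQLFTest, R 4.3.3) with no covariate. Benjamini-Hochberg adjustment ran over the 13769 genes tested, with a threshold of 0.05. The biological coefficient of variation was 26.4%. CPM and RPKM were computed from the counts with TMM-scaled library sizes, and log2 CPM used a prior count of 2. The SE is the log2 fold change divided by the square root of the F statistic. Single values were also compared by an exact 2-sided permutation test over 70 splits. P-values measure the spread between these embryos. DESeq2 1.42.0 and limma 3.58.1 (voom with sample quality weights), other scalings and filters, other transcripts, a replicate block, globin or Y-linked level as covariate and each library left out in turn were alternatives. The epicardial covariate and leaving out CTRL replicate 1 with Isl1_hypo replicate 3 were added after seeing the data.

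The members and gene lists were chosen with earlier results of these data known. Named were Isl1, all members, other pathway genes with an unadjusted p under 0.05 or the highest level of their list, and the 3 genes most like Aldh1a2 and most like the member with the smallest p. Some genes that this rule names are not reported here. Aldh1a7, Bmp4, Ets1, Cldn6, Cdh1, Krt8, Krt18, Hba-a1, Hba-a2, Actc1, Myh6, Myh7, Sln and Dhrs3 were singled out with their values known. Coordinates are from the GENCODE annotation of mm9. No exon of another gene overlapped those of the 10 members there.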

Additional observations from a re-analysis of the deposited data

Results flagged for a closer look

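In 28 groups of 4 libraries, a library whose gap to its nearest neighbour was large for the range of its group (beyond Dixon's 95% limit) was found 2 times, and chance alone gives about 5% of groups. Aldh1a1 in Isl1_hypo replicate 2 was at 5.599 log2 CPM, with the other 3 hypomorph libraries at 5.215 to 5.239. Rara in Isl1_hypo replicate 3 was at 4.492 log2 CPM, with the others at 5.609 to 5.828. Leaving that library out moved the log2 fold change of Rara from −0.33 to −0.11.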

How the results depend on the processing

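The number of genes called, 37 by edgeR, was 319 by DESeq2, 130 by limma-voom, 0 with globin level as a covariate, 3 with the Y-linked level, 1 with the epicardial level and 4 to 48 with 1 library left out, so the adjusted p of any member rests on the test used. Members called, 0 by edgeR, were 1 by DESeq2, 1 by limma-voom and 0 to 1 with 1 library left out. Members at an unadjusted p under 0.05, 4 by edgeR, were 1 with the globin covariate, 2 with the epicardial covariate and 3 to 5 with 1 library left out, while over all 13769 genes the number fell from 1633 to 499 with the globin and to 754 with the epicardial covariate. Other pathway genes called, 0 by edgeR, were 1 by DESeq2. Crabp1 was below 0 in all 22 alternatives: −1.33 by DESeq2, −1.25 by limma-voom, −1.66 to −1.11 with 1 library left out and −1.05 with the globin covariate (edgeR adjusted p = 0.9996). Isl1 stayed below 0 but lost its call with the globin covariate (−2.30, adjusted p = 0.519) and the epicardial covariate (−2.63, adjusted p = 0.112). The sign turned for Aldh1a1 (−0.20) and Aldh1a2 (−0.85) with the epicardial covariate, for Cyp26b1 (0.0063) with the globin covariate, and for Rarg with the globin covariate (0.55), the epicardial covariate (0.69) and without CTRL replicate 1 and Isl1_hypo replicate 3 (0.20). The cause was not tested. The replicate numbers did not pair the samples (correlations of same-numbered libraries from −0.0209 to 0.0219). With a replicate block 0 genes were called, Isl1 was at −2.29 (adjusted p = 0.0721) and Crabp1 at −1.43 (adjusted p = 0.102). Cyp26a1, with 0 to 49 counts, was below 0 in all 21 alternatives that could fit it (−2.78 to −0.58). It could not be fitted under the minimum of 10 counts in every library.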
